A study of Oryza sativa with 6 samples.

Results

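The genes described are the 31 Aux/IAA genes (IAA1 to IAA31) and the 24 ARF genes (ARF1 to ARF19 and ARF21 to ARF25) of rice, 55 of the 91180 features in the count table. They were taken by their RAP identifiers as members of the families, and none was chosen by its level or its change. The tested plants, OsRUS1-OX, were 1 ZhongHua11 (ZH-11) line that overexpressed OsRUS1 fused to the fluorescent protein GFP, and WT was ZhongHua11 itself. Flag leaves, the last leaves below the panicle, were taken at heading from field plants at 11 h on a sunny day, when OsRUS1-OX leaves were rolled and WT leaves were expanded. Genotype and leaf state therefore cannot be told apart. RNA-seq was carried out on 3 libraries of OsRUS1-OX and 3 of WT, each from a pool of 3 plants, and the pools were collected independently.

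Auxin is the plant hormone that guides growth, bending and organ patterning. The auxin response factors (ARFs) bind auxin response elements in promoters and activate or repress the genes nearby. Aux/IAA proteins are short-lived repressors that pair with ARFs and bring TOPLESS-type corepressors to the same promoters. Auxin joins an Aux/IAA protein to a TIR1/AFB receptor, the Aux/IAA protein is degraded, and the ARF is released. Many Aux/IAA genes are themselves switched on by auxin, so the family is also a negative feedback loop.

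The libraries held 11918655 to 13532579 counted reads in OsRUS1-OX and 8759812 to 11744177 in WT. At this depth, 3 reads were worth 0.222 to 0.252 CPM (reads scaled to the library total) in OsRUS1-OX and 0.255 to 0.342 CPM in WT. Green leaf markers were high in every library, with a summed FPKM (fragments scaled to gene model length and to sequencing depth) over 5 genes of 12203 to 15016 in OsRUS1-OX and 9817 to 13107 in WT. Of these 5 genes, 1 was called higher and 2 were called lower by the test described below, which called 11.8% of all tested features in each direction. The chlorophyll a/b binding protein gene CAB2R (OS01G0600900) was among them at a log2 fold change of 1.03, as was the Rubisco small subunit gene OS12G0292400 at -1.17. Of 3 meristem and seed markers, 2 had no read in any library, and the third kept the summed FPKM at 0.924 to 1.47 in OsRUS1-OX and 1.20 to 2.38 in WT. OS04G0290800, one of the genes that the study's tables tie to vitamin B6 photo-protection, had 3515 to 7577 counts in OsRUS1-OX and 57 to 120 in WT. Whether that identifier is OsRUS1 was not tested.

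A member was called when edgeR's quasi-likelihood test gave an adjusted p under 0.05 over the 19694 features that passed a filter on low counts. Positive log2 fold changes mean higher in OsRUS1-OX. By this rule 23.6% of all tested features were called, 11.8% higher and 11.8% lower in OsRUS1-OX, and their median log2 fold change was -0.01. Normalized counts, given below, are counts scaled to a common library size. As these are whole-leaf samples, fewer cells of a type and less RNA per cell cannot be told apart.

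Of the 31 Aux/IAA genes, 17 passed the filter. Of these 17, 6 rose in OsRUS1-OX (IAA1, IAA2, IAA3, IAA6, IAA15 and IAA18), 1 fell (IAA10) and 10 were not called. The called genes were 41.2% of the tested members, against the 23.6% of all features, and the 6 that rose were 35.3%, against 11.8%. Over all 31 members the called share was 22.6%. The filter asked for enough reads in at least 3 of the 6 libraries, whichever their genotype, so a gene read in 1 genotype alone could pass through the group where it was high, and these shares do not describe the whole family. The median log2 fold change of the 17 was 0.30.

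IAA6 (OS01G0741900, chromosome 1) had the largest difference of both families. It is known from rice work for drought tolerance and for control of tiller outgrowth, and it is the only member for which the study designed qRT-PCR primers. These are shown because they are the sequences by which the study assayed the transcript a second time, and each is 20 bases long, written 5′ to 3′ in lower case with no part marked.
IAA6 forward: aggagacaggatgctggttg
IAA6 reverse: agcagtagctccaatcaggg

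The OsRUS1-OX libraries had 418, 1160.0 and 613 normalized counts of IAA6, against 119.7, 141 and 136 in the WT libraries. Every OsRUS1-OX library lay above every WT library, and the OsRUS1-OX libraries were also the more spread out, with a mean of 730.3 ± 385 against 132 ± 11.0 (SD, n = 3 each). This was a log2 fold change of 2.46 (SE 0.36, edgeR adjusted p = 0.0029, where SE is the standard error). Leaving out each library in turn gave 1.96 to 2.76, and IAA6 was called each time. The replicate 2 library of OsRUS1-OX alone held the highest value.

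IAA15 (OS05G0178600, chromosome 5) had 636, 918 and 880.4 normalized counts in OsRUS1-OX, against 251, 498 and 414 in WT. The groups did not overlap, and the lowest WT library was replicate 1. Its log2 fold change was 1.06 (SE 0.25, edgeR adjusted p = 0.021).

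IAA1 (OS01G0178500, chromosome 1), whose overexpression in rice is known to dampen auxin responses, had 454, 768 and 756 normalized counts in OsRUS1-OX, against 258, 369 and 384 in WT. Here the OsRUS1-OX replicate 1 library was closer to WT than the other 2 were. IAA1 thus reached a log2 fold change of 0.96 (SE 0.24, edgeR adjusted p = 0.023).

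IAA3 (OS01G0231000, chromosome 1) was the most even of the 6 within OsRUS1-OX. Its 3 OsRUS1-OX libraries had 654, 656 and 659 normalized counts, against 362, 330.3 and 448 in WT. The log2 fold change of 0.79 (SE 0.14, edgeR adjusted p = 0.0059) was the smallest of the 6 and, with IAA6, the only one called with every library left out in turn.

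IAA2 (OS01G0190300, chromosome 1) and IAA18 (OS05G0523300, chromosome 5) rose from lower levels. IAA2 had 131, 135 and 155 normalized counts in OsRUS1-OX, against 94.3, 57.7 and 67.7 in WT, a log2 fold change of 0.95 (SE 0.22, edgeR adjusted p = 0.018). IAA18 had 43.7, 76.7 and 49.4 normalized counts in OsRUS1-OX, against 23.9, 27.3 and 30.7 in WT, a log2 fold change of 1.04 (SE 0.29, edgeR adjusted p = 0.037). In both genes the lowest OsRUS1-OX library stood above the highest WT library. IAA18 was the least stable of the 6, since it was called in only 1 of the 6 fits that left out a library.

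IAA10 (OS02G0817600, chromosome 2), known in rice as a target of a capsid protein of the rice dwarf virus, was the 1 member that fell. It had 713, 624 and 708 normalized counts in OsRUS1-OX, against 869, 971 and 831 in WT. The groups did not overlap, but the difference was small, with a log2 fold change of -0.39 (SE 0.12, edgeR adjusted p = 0.047). It was called in none of the 6 fits that left out a library, where its log2 fold change stayed between -0.44 and -0.32.

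**Figure D1:**
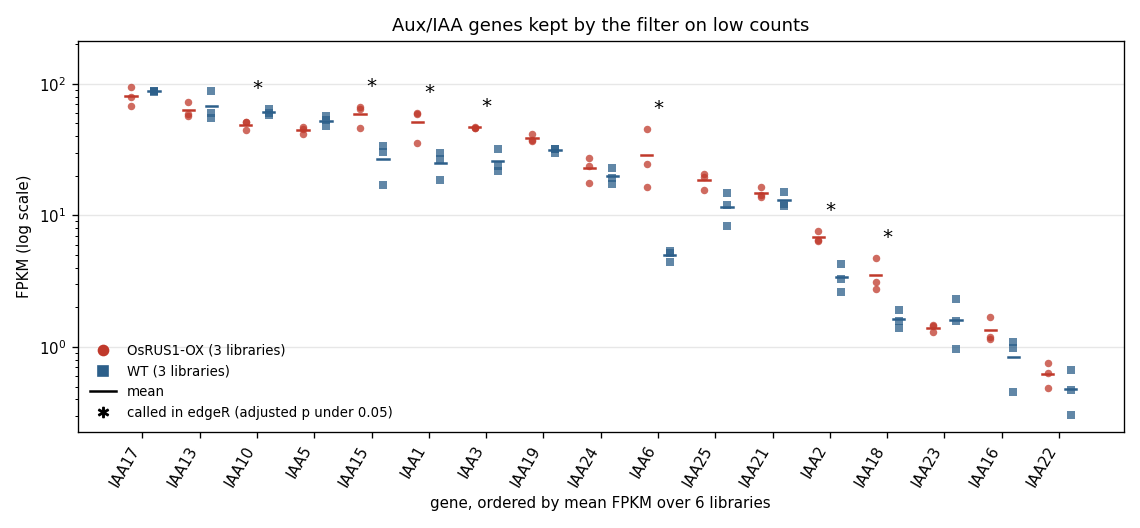
FPKM (log scale) of the 17 Aux/IAA genes that passed the filter on low counts, ordered by mean FPKM over 6 libraries; each point is 1 library, OsRUS1-OX circles stand left of WT squares, bars are means and asterisks mark the called genes. The 6 genes that rose sat at all levels, with IAA15, IAA1 and IAA3 near the top, while IAA17 and IAA13, the 2 highest by mean FPKM, overlapped between genotypes.

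The most abundant Aux/IAA transcripts per length were not those that rose the most. By mean FPKM over the 6 libraries the order began with IAA17, IAA13, IAA10, IAA5 and IAA15. IAA17 (OS05G0230700, chromosome 5) had 94.0, 68.3 and 79.6 FPKM in OsRUS1-OX, against 88.6, 86.4 and 88.4 FPKM in WT, and its log2 fold change in the count test was -0.19 (SE 0.14, edgeR adjusted p = 0.35). IAA13 (OS03G0742900, chromosome 3), known in rice for lateral root formation, had 72.3, 59.2 and 57.2 FPKM in OsRUS1-OX, against 60.4, 88.8 and 55.0 FPKM in WT. For both genes the libraries of the genotypes overlapped. IAA13 had a log2 fold change of -0.19 (SE 0.21, edgeR adjusted p = 0.56).

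IAA5 (OS01G0675700, chromosome 1) had 46.9, 45.6 and 41.6 FPKM in OsRUS1-OX, against 47.7, 53.0 and 56.8 FPKM in WT. Its libraries did not overlap, yet its log2 fold change of -0.30 (SE 0.11) did not pass the test (edgeR adjusted p = 0.088). IAA19 (OS05G0559400) was the other gene whose libraries did not overlap without a call, at a log2 fold change of 0.24 (SE 0.11, edgeR adjusted p = 0.16). In all, 9 of the 17 tested Aux/IAA genes had libraries that did not overlap, against 42.4% of all tested features, 7 of them higher in OsRUS1-OX, against 21.2%. The 8 genes neither called nor separated had log2 fold changes between -0.26 (IAA23, known in rice for the root quiescent centre) and 0.60 (IAA25). IAA25 had an adjusted p of 0.11 from edgeR and was called only without WT replicate 2, where its log2 fold change was 0.82.

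In summed FPKM the Aux/IAA family reached 511, 558 and 538 in OsRUS1-OX, against 399, 467 and 445 in WT. The means were 536 ± 23.9 in OsRUS1-OX and 437 ± 34.6 in WT (SD, n = 3 each), a ratio of 1.23. When the FPKM values were rescaled by the factors used for the counts, the ratio was 1.17. The groups did not overlap on either scale. No test was made of a sum over members.

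The make-up of that sum also differed. The 6 genes that rose made up 36.5% ± 5.62 of the family FPKM in OsRUS1-OX and 20.0% ± 2.87 in WT (SD, n = 3 each), values that follow in part from their being called. IAA17 ranked first in both genotypes, with 15.1% of the sum in OsRUS1-OX and 20.2% in WT. IAA15 ranked 3 in OsRUS1-OX and 6 in WT, and IAA1 ranked 4 in OsRUS1-OX and 8 in WT. IAA10 ranked 5 in OsRUS1-OX and 3 in WT.

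The other 14 Aux/IAA genes were at the edge of detection. IAA11, IAA27, IAA28 and IAA29 had no read in any library, which allows up to 0.222 to 0.342 CPM, depending on the library, from the 3 reads that a count of 0 allows, for counting error only. IAA7, IAA12, IAA14, IAA20, IAA26, IAA30 and IAA31 had 0 to 7 reads a library. IAA11, known for lateral root initiation in rice, lies next to IAA12 on chromosome 3, and IAA30 lies next to IAA31 on chromosome 12, with 0 genes between in the RefSeq gene order. Both of these pairs were thus barely or not at all detected at this depth. Neighbours were looked up only for the 50 members with exactly 1 RefSeq entry of their symbol, so IAA27 and IAA28 were not covered.

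A further 3 low genes, those with an unadjusted p under 0.05 in edgeR without the filter, had more reads in OsRUS1-OX. Of the barely detected genes above, IAA7, IAA14, IAA20 and IAA31 also had higher mean normalized counts in OsRUS1-OX, and IAA12, IAA26 and IAA30 lower. Reads of IAA14 did not overlap, at 5, 4 and 4 in OsRUS1-OX against 2, 1 and 2 in WT (edgeR adjusted p = 0.48 without the filter). IAA9 (OS02G0805100, chromosome 2) had 6, 35 and 29 reads in OsRUS1-OX, against 6, 8 and 3 in WT. The OsRUS1-OX replicate 1 library had as few reads as WT replicate 1, and the groups overlapped. Without the filter on low counts its edgeR adjusted p was 0.10, and without OsRUS1-OX replicate 1 it passed the filter and was called (log2 fold change 2.15, edgeR adjusted p = 0.020). That fit lacks the low OsRUS1-OX library, and the gene entered it only through the 2 OsRUS1-OX libraries where it was high, so this call is no support for a difference. IAA4 (OS01G0286900) had 10, 4 and 8 reads in OsRUS1-OX, against 1, 1 and 1 in WT (edgeR adjusted p = 0.056 without the filter). IAA8 (OS02G0723400) had 6, 2 and 5 reads in OsRUS1-OX, against 0, 1 and 1 in WT (edgeR adjusted p = 0.18 without the filter). Of the 15 members of both families that the filter removed, 0 were called by edgeR without the filter and 0 by DESeq2, and 3 had an unadjusted p under 0.05 in edgeR. IAA11, IAA27, IAA28 and IAA29, without any read, could be called by neither. DESeq2 gave an adjusted p only for IAA4, IAA8, IAA9, IAA14 and IAA20, so its count of 0 says nothing of the other removed members. Limma on log2(FPKM + 1) over all features above 0 called 4 Aux/IAA genes, of which 3 were among those called above. It therefore did call a removed gene.

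**Figure D2:**
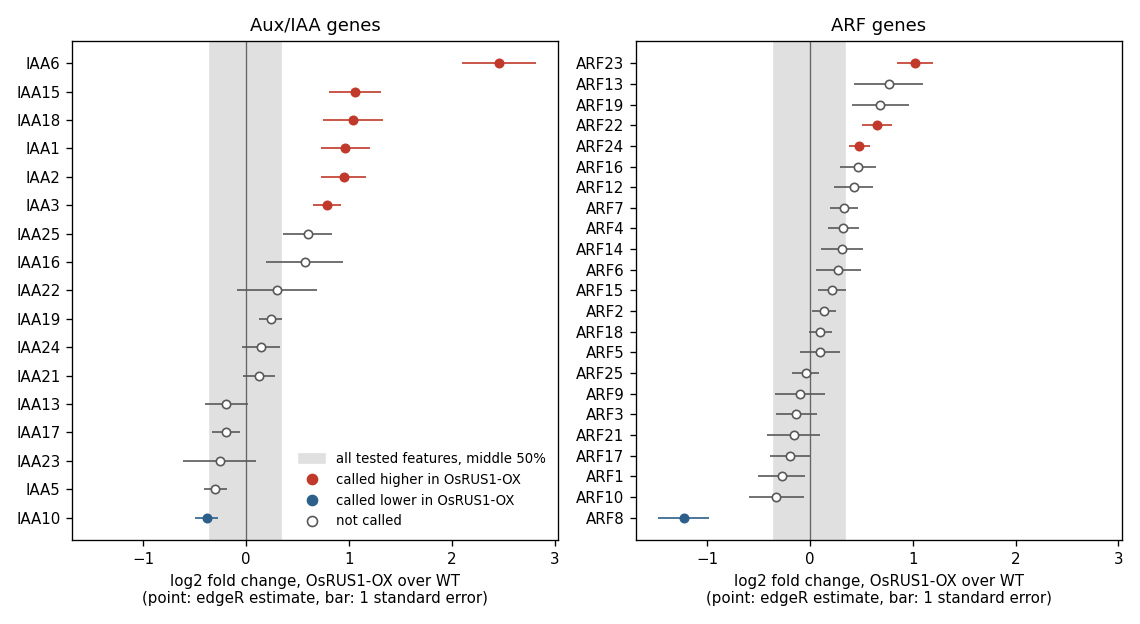
Log2 fold changes of OsRUS1-OX over WT with bars of 1 standard error for the 17 Aux/IAA genes (left) and the 23 ARF genes (right) that were tested, filled where called; the grey band holds the middle 50% of all tested features. IAA6 stood alone at 2.46, ARF8 at -1.23 was the lowest, and most ARF genes lay within or close to the band.

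Of the 24 ARF genes, 23 passed the filter. Of these 23, 3 rose in OsRUS1-OX (ARF22, ARF23 and ARF24), 1 fell (ARF8) and 19 were not called. The called genes were 17.4% of the tested members, against 23.6% of all features, and the 3 that rose were 13.0%, against 11.8%, so these counts were near or below the background. The median log2 fold change was 0.21. As nearly the whole family was tested, these shares, unlike those of the Aux/IAA genes, were little shaped by the filter.

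ARF23 (OS11G0523800, chromosome 11) had the largest increase of the family. It had 5256, 6694 and 5322 normalized counts in OsRUS1-OX, against 3112, 2292 and 3109 in WT. The lowest OsRUS1-OX library was well above the highest WT library, and replicate 2 was the highest in OsRUS1-OX and the lowest in WT. The log2 fold change was 1.02 (SE 0.17, edgeR adjusted p = 0.0054), and it was 0.89 to 1.10 over all alternatives, each of which called it.

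ARF24 (OS12G0479400, chromosome 12) pairs in rice with ARF23, and the pair is known to switch on the formin gene RMD, which organises actin in auxin-driven growth. It had 2003, 2077 and 1979 normalized counts in OsRUS1-OX, against 1473, 1392 and 1479 in WT. Both groups were tight, with SDs of 51.4 and 48.8 on means of 2020 and 1448 in OsRUS1-OX and WT, n = 3 each. The log2 fold change was 0.48 (SE 0.10, edgeR adjusted p = 0.014).

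ARF22 (OS10G0479900, chromosome 10) had 446, 538 and 489 normalized counts in OsRUS1-OX, against 363, 264 and 313 in WT. The groups did not overlap, and differed by a log2 fold change of 0.65 (SE 0.15, edgeR adjusted p = 0.017).

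ARF8 (OS02G0628600, chromosome 2) was the 1 ARF gene that fell. It had 68.6, 41.7 and 46.1 normalized counts in OsRUS1-OX, against 146, 113 and 109 in WT. All OsRUS1-OX libraries were below all WT libraries, in raw reads as well, with 80, 43 and 55 in OsRUS1-OX and 104, 108 and 103 in WT. The log2 fold change was -1.23 (SE 0.25, edgeR adjusted p = 0.011), and 5 of the 6 fits that left out a library kept the call.

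**Figure D3:**
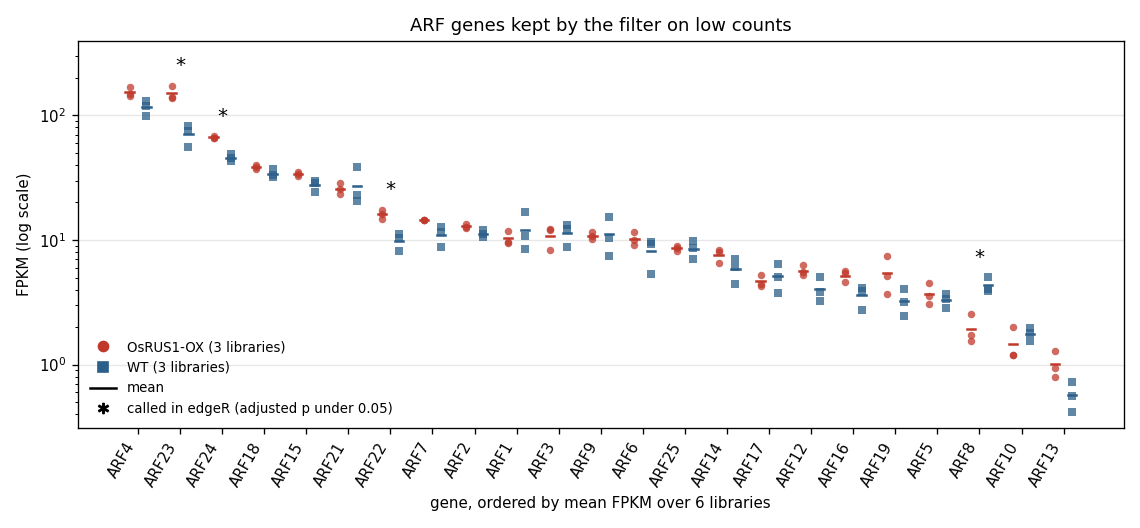
FPKM (log scale) of the 23 ARF genes that passed the filter on low counts, ordered by mean FPKM over 6 libraries; each point is 1 library, OsRUS1-OX circles stand left of WT squares, bars are means and asterisks mark the called genes. ARF4 and ARF23 led the family, and ARF23 and ARF24 were separated between genotypes at high level, while ARF8 was separated in the other direction at a low one.

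ARF4, ARF23, ARF24, ARF18 and ARF15 were the 5 most abundant ARF transcripts per length. ARF4 (OS01G0927600, chromosome 1) had 143, 169.9 and 148 FPKM in OsRUS1-OX, against 131, 99.7 and 119.5 FPKM in WT. Its libraries did not overlap in normalized counts, but the log2 fold change of 0.32 (SE 0.15) did not pass the test (edgeR adjusted p = 0.16). In WT it stood above ARF23 in each library, at 116.9 ± 16.0 FPKM against 71.0 ± 13.5 FPKM. In OsRUS1-OX the means of ARF4 and ARF23 were 153 ± 14.4 and 151 ± 19.8 FPKM (SD, n = 3), which were not apart beyond their spread.

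ARF18 (OS06G0685700, chromosome 6) had 37.1, 38.4 and 40.1 FPKM in OsRUS1-OX, against 32.1, 37.2 and 33.2 FPKM in WT, with a log2 fold change of 0.10 (SE 0.12, edgeR adjusted p = 0.58). Its groups overlapped in normalized counts. ARF15 (OS05G0563400, chromosome 5) had 34.9, 33.6 and 32.6 FPKM in OsRUS1-OX, against 29.8, 28.6 and 24.4 FPKM in WT. Its groups were apart, but the log2 fold change of 0.21 (SE 0.13) was not called (edgeR adjusted p = 0.29).

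Of the 23 tested ARF genes, 10 had libraries that did not overlap, against 42.4% of all features, 9 of them higher in OsRUS1-OX, against 21.2%. Among the 19 genes not called, log2 fold changes ran from -0.33 (ARF10) to 0.77 (ARF13), and none reached an absolute value of 1. ARF13 was the rarest tested ARF, at 1.01 FPKM in OsRUS1-OX and 0.57 FPKM in WT on average, with an edgeR adjusted p of 0.14. ARF19, known in rice for leaf angle, had a log2 fold change of 0.69 (SE 0.28, edgeR adjusted p = 0.12) and was called only without OsRUS1-OX replicate 1. ARF11 was the 1 member removed by the filter, with 2, 0 and 0 reads in OsRUS1-OX, against 0, 1 and 6 in WT.

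ARF proteins with a glutamine-rich middle region act as activators and the others mostly as repressors. The genes were assigned to these types from general knowledge of rice, and the glutamine share of the proteins was not computed. Of 9 ARF genes of the activator type, 8 were tested and 0 were called by edgeR, 0 by DESeq2 and 0 by limma, while 2 had an unadjusted p under 0.05 in edgeR (ARF16 and ARF19). Of 15 of the repressor type, all were tested and 4 were called, 26.7%, which is close to the 23.6% of all tested features. These 4 include ARF23 and ARF24, although that pair is known to switch on RMD. The median log2 fold changes were 0.19 for the activator type and 0.21 for the repressor type. The difference between the types was not tested, and with 8 activator genes a count of 0 does not set them apart from that background.

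Several ARF transcripts are known to be cut by small RNAs. The miR160-targeted genes ARF8, ARF10, ARF18 and ARF22 held both the 1 gene that fell and 1 of those that rose, with log2 fold changes from -1.23 (ARF8) to 0.65 (ARF22). They did not move together. The miR167-targeted genes ARF6, ARF12, ARF17 and ARF25 ranged from -0.19 to 0.43, with 0 called by edgeR or DESeq2 and 0 at an unadjusted p under 0.05. The 4 genes of the ETTIN type with trans-acting siRNA sites (ARF2, ARF3, ARF14 and ARF15) ranged from -0.14 to 0.31, also with 0 called by edgeR or DESeq2 and 0 at an unadjusted p under 0.05. The small RNA groups rest on general knowledge of rice, and small RNAs were not measured here.

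In summed FPKM the ARF family reached 574, 641 and 585 in OsRUS1-OX, against 459.7, 395 and 457 in WT. The means were 600.0 ± 35.8 in OsRUS1-OX and 437 ± 36.4 in WT (SD, n = 3 each), a ratio of 1.37, or 1.31 on the rescaled values. Without ARF4, the ratio was 1.39. ARF23 alone held 25.0% ± 1.76 of the sum in OsRUS1-OX and 16.1% ± 1.88 in WT. ARF4 held 25.5% ± 0.86 in OsRUS1-OX and 26.6% ± 1.74 in WT. The 5 ARF genes with the highest mean FPKM together held 73.8% ± 1.42 in OsRUS1-OX and 67.5% ± 0.79 in WT, whereas the same number of Aux/IAA genes held 55.4% ± 5.07 in OsRUS1-OX and 67.7% ± 2.35 in WT. Both sets were ranked by mean FPKM over all 6 libraries and were not the first 5 within each genotype. IAA5 ranked 7 in OsRUS1-OX, IAA15 ranked 6 in WT, and ARF15 ranked 6 in WT.

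**Figure D4:**
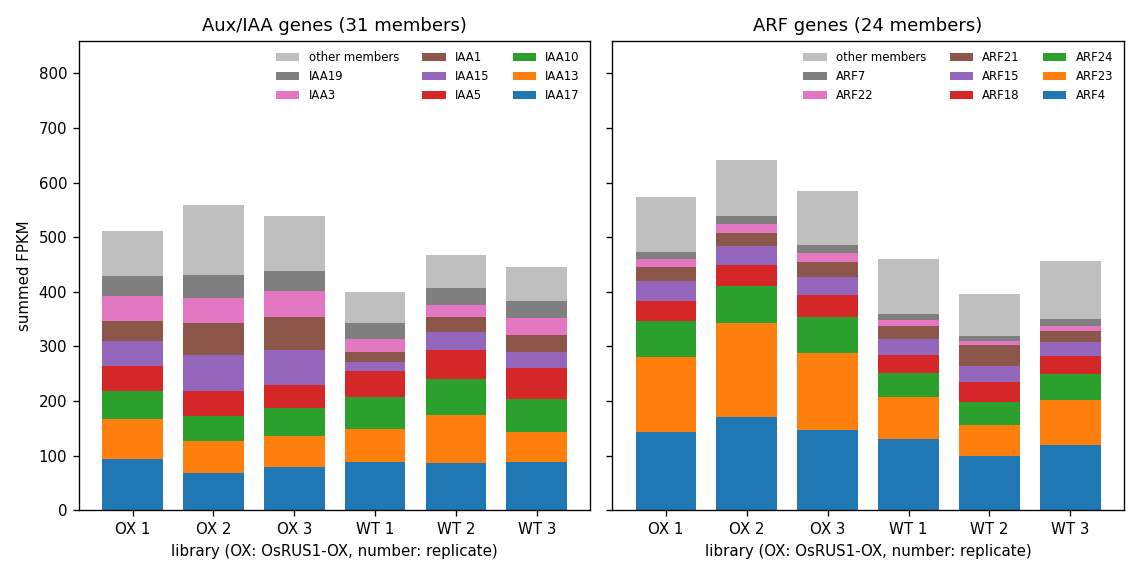
Summed FPKM of all 31 Aux/IAA genes (left) and all 24 ARF genes (right) in each library, OsRUS1-OX libraries left of WT libraries, stacked by the 8 members with the highest mean FPKM and the rest. Every OsRUS1-OX bar was above every WT bar in both families, and most of the ARF difference lay in ARF23, ARF4 and ARF24.

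The increases were not shared evenly by the OsRUS1-OX libraries. Replicate 2 held the highest OsRUS1-OX value for 4 of the 6 Aux/IAA genes and 3 of the 3 ARF genes that rose, replicate 3 held it for 2 Aux/IAA genes, and replicate 1 for 0. Left out in turn, the OsRUS1-OX libraries gave 7, 2 and 2 called Aux/IAA genes and 5, 2 and 1 called ARF genes for replicates 1, 2 and 3. The share of all tested features called also fell, to 19.4% without OsRUS1-OX replicate 1, 12.5% without replicate 2 and 11.9% without replicate 3. Without WT replicate 1, 2 or 3, the counts were 4, 6 and 4 for Aux/IAA and 4, 4 and 4 for ARF, with 17.2%, 25.9% and 18.6% of all tested features called. DESeq2 called 7 of 27 Aux/IAA and 4 of 24 ARF genes (16.2% of the 31752 features with any read). These totals include features to which DESeq2 gave no adjusted p, such as IAA7, IAA12, IAA26, IAA30, IAA31 and ARF11. The DESeq2 shares are therefore not shares of tested features. Limma on log2(FPKM + 1) called 6 of 16 and 4 of 22 (19.4% of 20084 features). Limma over all features above 0 called 4 of 27 and 3 of 24 (10.3% of 31752 features). A fit with the replicate number as a block called 5 of 17 and 4 of 23 (20.4% of 19694 features). Of the 11 called members, 3 (IAA3, IAA6 and ARF23) were called in all 6 fits that left out a library. An added minimum absolute log2 fold change of 1 left 3 of 17 Aux/IAA genes and 2 of 23 ARF genes, against 12.6% of all tested features.

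Other genes of the pathway were taken from lists of identifiers set from general knowledge of rice, so their membership rests on that knowledge. Of 35 listed genes, 18 were tested, 3 rose and 1 fell, 22.2% of those tested, which is close to the 23.6% of all features. All 5 TIR1/AFB receptor genes were tested, and 3 had an unadjusted p under 0.05 in edgeR. Their log2 fold changes ran from -1.22, which was not called, to 0.79. Only 1 was called, as higher, against 11.8% of all tested features. The called gene was OS04G0395600, which the study's tables describe as similar to an Arabidopsis AFB2 receptor. It had 437, 509 and 576 reads in OsRUS1-OX, against 160, 262 and 264 in WT. The groups did not overlap, and the log2 fold change was 0.79 (SE 0.15, edgeR adjusted p = 0.0093).

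Of 3 TOPLESS-type corepressor genes, 0 were called by edgeR or DESeq2 and 0 had an unadjusted p under 0.05. The list held 13 genes of the GH3 family, in which some enzymes join auxin to amino acids. Of these, 5 were tested and 1 was called lower, against 11.8% of all tested features. The gene called lower was OS05G0586200, with a log2 fold change of -0.52 (SE 0.14, edgeR adjusted p = 0.032). Whether its enzyme acts on auxin was not tested. The log2 fold changes of the 5 ran up to 1.40, with a median of 0.55, and 2 had an unadjusted p under 0.05 in edgeR. A further 5 GH3 genes had no read.

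Of 9 genes for the YUCCA and TAA enzymes, which make auxin, 4 were tested and 2 were called higher, against 11.8% of all tested features, while the other 2 had negative log2 fold changes. All 4 had an unadjusted p under 0.05 in edgeR. OS07G0437000 had 72, 42 and 84 reads in OsRUS1-OX, against 0, 2 and 2 in WT (edgeR adjusted p = 0.00091), and it passed the filter only through OsRUS1-OX, where it was high, so the filter favoured its call. OS01G0224700 had 124, 233 and 310 reads in OsRUS1-OX, against 44, 92 and 94 in WT, a log2 fold change of 1.19 (SE 0.35, edgeR adjusted p = 0.041). OS03G0162000 (log2 fold change -0.74, edgeR adjusted p = 0.090) and OS01G0169800 (log2 fold change -0.89, edgeR adjusted p = 0.12) were not called, and the libraries of OS03G0162000 did not overlap. None of these 4 identifiers carries a gene name in the sources used here. The paper's introduction names OsCOW1, a YUCCA family gene with a leaf rolling mutant, under another form of identifier. Whether OsCOW1 is among these 4 was not tested. Of 5 AUX1/LAX influx carrier genes, 1 was tested and 0 were called by edgeR or DESeq2, with 0 at an unadjusted p under 0.05. Auxin itself was not measured.

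The pattern of IAA6 over the 6 libraries was compared with that of every tested feature, by Pearson's r on log2 normalized counts, as a description over libraries of 2 genotypes. The 5 most alike were OS03G0775600, OS05G0516600, OS03G0723600, OS07G0679300 and OS01G0511100, with r from 0.996 to 0.998. OS07G0679300 had 424, 1190.1 and 596 normalized counts in OsRUS1-OX, against 111, 123 and 149 in WT, close to the levels of IAA6 library by library. Among the members, IAA18 (r = 0.98), IAA19 (r = 0.95), ARF24 (r = 0.95) and ARF23 (r = 0.94) were the most alike, and ARF8 (r = -0.98) the least. The difference between genotypes was left in these values, so members called higher have a high r and those called lower a negative one. This order therefore largely repeats the calls, and the 5 features were picked as the highest of all tested.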

How the data were processed

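RNA-seq was carried out on poly-A RNA of 6 flag leaf libraries. The authors aligned reads with TopHat2 2.0.12 and counted them with HTSeq 0.6.1 on an Ensembl Plants annotation of rice. The strand and overlap settings are not given in the sources used here, so reads shared by family members or overlapping genes cannot be assigned with certainty. The authors deposited whole-number counts and FPKM for each library. Results of their own comparison (means, fold changes and p-values) were not used. FPKM over counts gave an implied model length of 608 bases for ARF21, against 2009 to 4165 bases for the other ARF genes, so the FPKM level of ARF21 rests on a short model. Among the Aux/IAA genes with reads, IAA13 had the shortest implied model, at 760 bases against a median of 1201. Its high rank by FPKM therefore also depends on that length.

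The test of the counts used edgeR 4.0.16 under R 4.3.3 (TMM factors from 0.951 to 1.03, filterByExpr by genotype, quasi-likelihood test, Benjamini-Hochberg over 19694 features); standard errors came from the fold change and its F statistic. DESeq2 1.42.0, and limma 3.58.1 with a pseudocount of 1 or 0.1 added to FPKM before taking log2, served as alternatives, with other scalings, filters and left-out libraries. P-values measure the spread between pools of plants of 1 line. The procedure was also run on simulated counts, drawn independently for each library from fitted means and spread. That run cannot show how far the calls depend on single libraries, and no result here rests on it. Members and lists were chosen with earlier results of these data known. Named with values were all called members, the 5 members of each family with the highest mean FPKM, IAA6, members removed by the filter, called pathway genes and the 5 features most like IAA6; IAA19, IAA23, IAA25, ARF10, ARF13, ARF16, ARF19 and 2 YUCCA and TAA genes not called were added after their values were seen, and CAB2R and OS12G0292400 come from the leaf marker list. Gene symbols follow the family lists; 50 of the 55 had 1 entry of that symbol on the same chromosome in RefSeq (assembly ASM3414082v1), which lists OsARF1 as a synonym of ARF23. The gene order of neighbours is that of RefSeq.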

Additional observations from a re-analysis of the deposited data

How the results depend on the processing

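The 11 called members kept their direction under every alternative, and 8 members that were not called changed sign under at least 1. The 6 fits that left out 1 library gave 2 to 7 called Aux/IAA genes, 1 to 5 called ARF genes and 2 to 5 called pathway genes, against 7, 4 and 4 with all libraries. An added minimum absolute log2 fold change of 1 left 3 Aux/IAA, 2 ARF and 2 pathway genes, and 12.6% of all tested features. Limma over all features above 0 called 4 Aux/IAA genes, 3 of them among the 7 reported. Limma on log2(FPKM + 1) and on log2(FPKM + 0.1) called 2 and 2 pathway genes. The other scalings, filters and DESeq2 gave counts within 1.5 times the reported ones. Scaling by library totals alone moved the median of all features to 0.06 and the calls over all features to 2678 higher and 1879 lower, and limma over all features above 0 gave 2010 higher and 1266 lower, against 2328 and 2316 as reported. Over 15 alternatives, IAA3, IAA6 and ARF23 were called each time, ARF8, ARF22 and ARF24 13 times, IAA2 and IAA15 12 times, IAA1 11 times, IAA18 8 times and IAA10 2 times. Deviations of libraries with the same replicate number were at most weakly correlated, at 0.12, -0.09 and 0.11 for replicates 1, 2 and 3. For OsRUS1-OX replicates 1 and 3, the WT library of the same number was the best match. OsRUS1-OX replicate 2 correlated best with WT replicate 3, at 0.16. The numbers were not taken as pairs, and whether they mark shared collections was not tested. A fit with the replicate number as a block called 5 Aux/IAA, 4 ARF and 4 pathway genes.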
